A study of Mus musculus with 12 samples.

Results

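The proteins of the cytosolic ribosome are encoded by genes spread over the genome, and their promoters are described here. Members were all accessible regions (peaks) whose centre lay within 1000 bp of a transcription start site (TSS) and whose nearest gene carried an Rps or Rpl name of the cytosolic ribosome, or the name Rplp0, Rplp1 or Rplp2. Microglia had 108 such peaks at 69 genes among 91770 listed, NeuN+ nuclei 123 at 73 genes among 107627, and Olig2+ nuclei 111 at 71 genes among 82577. In all, 342 of 281974 listed peaks were members, at 75 genes. The rule uses names and distances, and no measured level or change.

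Open chromatin was profiled by ATAC-seq (adapters are inserted into accessible DNA by a transposase) in forebrain of C57BL/6 mice aged 4 months. Wild-type (WT) mice were compared with SgshKO mice, which lack Sgsh, the gene for a lysosomal enzyme that removes sulfate from heparan sulfate and whose loss causes a lysosomal storage disease. There were 3 sorts, each with 2 WT and 2 SgshKO libraries: live CD11b+, CX3CR1+ microglia with low CD45, NeuN+ nuclei without PU.1 and OLIG2, and Olig2+ nuclei without PU.1 and NEUN. Both kinds of nuclei were lightly fixed with formaldehyde and the microglia were sorted alive, so sort and preparation cannot be told apart. The labels do not say how the Sgsh allele was made, or whether the 2 libraries of a group came from different mice, so p-values measure the spread between these libraries.

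Library totals ran from 10771659 to 19555924 tags, and the median member peak held 43 to 102 reads depending on the library. Values are tags per peak scaled to a library total of 10000000. Of all tags, 55.8% and 48.7% lay in peaks in WT microglia and 67.4% and 53.7% in SgshKO microglia. NeuN+ nuclei had 26.7% and 25.9% against 21.5% and 21.2%, and Olig2+ libraries 30.9% to 31.8%. Peaks near a TSS were found at 9 of 10 microglial marker genes in microglia (Aif1 had none), 10 of 10 neuronal genes in NeuN+ nuclei and 11 of 11 oligodendrocyte-lineage genes in Olig2+ nuclei. The peaks listed for microglia also covered 3 neuronal, 6 oligodendrocyte-lineage, 3 astrocyte and 3 endothelial marker genes. A peak at the Sgsh start was present in both genotypes of every sort, so accessibility there does not check the genotype labels. In NeuN+ nuclei its mean was 28.6 tags in WT and 11.2 in SgshKO libraries (log2 change -1.27, limma adjusted p = 0.0026). Microglia had 173 and 259 tags, and Olig2+ nuclei 70.0 and 65.0 (adjusted p = 0.20 and 0.65). In bulk libraries, a larger share of cells with an open promoter and a more open promoter in each cell cannot be told apart.

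Ribosomal protein genes are housekeeping genes that every dividing and resting cell transcribes heavily. Their promoters typically lack a TATA box, start transcription at a cytosine within a pyrimidine run, and give mRNAs that begin with a terminal oligopyrimidine (TOP) motif, through which the kinase mTOR controls their translation. ETS-family factors, YY1 and Sp1-like factors are known to bind many of them. In microglia and neurons alike, the supply of ribosomes sets how much protein a cell can make.

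RefSeq promoter windows of 300 bases (250 before to 50 after the annotated start, GRCm38.p6) were matched by symbol for 54 of the 75 genes, in 66 windows. Letters were sought on both strands except CTTT, which was sought on the sense strand with its C within 5 bases of the start. The ETS core CCGGAAG occurred in 34.8% of member windows and in 8.86% of all 32851 windows. The YY1 letters AANATGGC occurred in 21.2% against 6.05%, and the SP/KLF box GGGCGG in 59.1% against 35.7%. CTTT at the start was found in 19.7% against 5.17%, and in 20.4% of the 54 genes against 4.55% of 11594 genes when the start implied by the files was used. The cyclic AMP element TGACGTCA occurred in 7.58% against 1.79%, the E-box CACGTG in 12.1% against 7.15% and the NRF1 letters GCATGCGC in 4.55% against 2.71%. CCAAT was in 31.8% against 37.4% and TATAAA in 7.58% against 13.6%. Member windows had a median GC content of 57.8% and 21 CpG, against 52.7% and 7 for all windows.

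The 6 promoters that follow are shown because a member peak named in the results overlaps each of them. Where a gene had several windows, one with CTTT at the start was preferred. This decided the Rpl35a window, since its other windows lack CTTT there. Each run covers 150 bases before and 10 after the annotated start, read 5′ to 3′ on the gene's strand, on mm10 coordinates (RefSeq, GRCm38.p6). Capitals mark matches to the letters named above, on either strand, and CTTT at the start. Adjacent or overlapping matches merge into 1 capital run. Rpl31 (chr1:39367701-39367860, plus strand) and Rps16 (chr7:28350539-28350698, plus strand) had the largest called increases among start-site peaks in SgshKO microglia. Rps10 (chr17:27635235-27635394, minus strand) rose in microglia and fell in NeuN+ nuclei. Rpl35 (chr2:39005122-39005281, minus strand) and Rpl37 (chr15:5116463-5116622, plus strand) differed most clearly in genotype change between both nuclei sorts. Rpl35a (chr16:33056332-33056491, plus strand) fell in NeuN+ nuclei.
Rpl31: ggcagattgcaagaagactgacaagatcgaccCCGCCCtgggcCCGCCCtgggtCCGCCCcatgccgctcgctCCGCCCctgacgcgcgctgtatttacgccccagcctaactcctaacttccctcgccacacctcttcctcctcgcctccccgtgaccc
Rps16: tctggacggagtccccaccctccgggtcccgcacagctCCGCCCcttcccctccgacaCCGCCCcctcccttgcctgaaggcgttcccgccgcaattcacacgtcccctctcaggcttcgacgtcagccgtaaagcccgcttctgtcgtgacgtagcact
Rps10: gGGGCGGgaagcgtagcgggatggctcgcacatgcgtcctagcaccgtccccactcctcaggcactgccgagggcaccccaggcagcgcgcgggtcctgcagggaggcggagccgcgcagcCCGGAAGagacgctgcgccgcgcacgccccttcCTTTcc
Rpl35: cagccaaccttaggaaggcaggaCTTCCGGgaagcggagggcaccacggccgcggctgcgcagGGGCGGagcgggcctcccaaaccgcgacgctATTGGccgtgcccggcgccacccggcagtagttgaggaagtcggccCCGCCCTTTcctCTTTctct
Rpl35a: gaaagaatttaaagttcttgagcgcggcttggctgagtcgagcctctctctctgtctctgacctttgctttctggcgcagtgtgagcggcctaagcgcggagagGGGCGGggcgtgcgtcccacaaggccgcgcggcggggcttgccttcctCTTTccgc
Rpl37: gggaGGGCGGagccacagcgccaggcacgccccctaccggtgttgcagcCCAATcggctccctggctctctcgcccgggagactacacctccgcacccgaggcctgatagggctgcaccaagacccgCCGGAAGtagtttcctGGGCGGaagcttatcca
The Rpl31 run holds 4 copies of the SP/KLF box and the Rps16 run 2, all on the opposite strand. Rps10, Rpl35 and the Rpl35a window chosen for it carry CTTT at the start. Such matches are letters only and say nothing of binding.

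Not every ribosomal protein gene could be followed. RefSeq lists 80 protein-coding symbols that fit the name rule, and 6 of them had no member peak in any table: Rps2, Rps27, Rpl9, Rpl10l, Rpl32l and Rpl39l, where the last 3 are paralogues. Accessible regions at the starts of Rps2, Rps27 and Rpl9 carried the name of a divergent or overlapping neighbour. A peak centred 79 bp before the Rps2 start was assigned to Snhg9 and held 150, 113, 210 and 228 tags in the 2 WT and 2 SgshKO microglia libraries. The Rps27 start peak was assigned to Rab13 and the Rpl9 start peak to Lias. In microglia Rpl15, Rpl17, Rpl24, Rpl3l and Rps28 also lacked a member peak, in NeuN+ nuclei Rpl3l and Rps25, and in Olig2+ nuclei Rpl18, Rps18 and Rps25. Start peaks under a neighbour's name were found for several of these too, so lacking a member peak does not mean a closed start. In microglia the Rpl15 start peak was listed under Nkiras1, with 294 and 224 WT tags, and that of Rps28 under Ndufa7. In Olig2+ nuclei those of Rpl18 and Rps18 were listed under Sphk2 (147 and 135 WT tags) and Vps52 (219 and 236), and in both nuclei sorts those of Rps25 under Trappc4. More than 1 member peak was present at 32 genes in microglia, 39 among NeuN+ and 32 among Olig2+ peaks, with up to 4 at Rpl10, Rpl10a and Rpl31. These peaks share a promoter and are not independent. At the edge of the window, Rpl31 at -970 bp was the farthest member in NeuN+ nuclei, with 4.53 and 5.08 tags in WT and 9.07 and 10.2 in SgshKO libraries. Rpl6 at -1119 bp was the nearest peak outside, with 7.36 and 7.34 against 4.19 and 5.08 tags.

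The first question was how open these promoters are in each sort of WT forebrain cell. Per 100 bp of the peak nearest the TSS, the median WT level of ribosomal protein genes was 20.7 tags for microglia, 25 for NeuN+ and 35.4 for Olig2+ nuclei. All genes with a peak near the TSS had medians of 25.8, 20.5 and 25.4 in the same tables. The median member stood at percentile 41.9 of genes for microglia, 56.3 for NeuN+ and 60.2 for Olig2+ nuclei. The 90th percentile of all genes was passed by 1 of 69 member genes in microglia, 4 of 73 for NeuN+ and 9 of 71 for Olig2+ nuclei.

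The order of genes differed between sorts on this per-length scale. In WT microglia Rpl10a, a large-subunit protein, led with 154 and 143 tags per 100 bp, followed by Rps15 (86.0 and 81.7), Rps21 (85.2 and 81.9), Rpl37 (85.4 and 74.9) and Rpl31 (87.3 and 67.0). Rpl10a lay above both libraries of each of the others, while the next 4 overlapped each other. In NeuN+ nuclei Rpl37 (113 and 108) and Rpl31 (104 and 111) led and overlapped. Olig2+ nuclei were led by Rps19 (175 and 183), a small-subunit protein mutated in Diamond-Blackfan anaemia, and Rpl13a (176 and 159). The lowest values came from peaks centred downstream of the start, since no nearer peak carried the gene's name: Rps18 at +335 bp in microglia (3.98 and 3.07), Rpl4 at +168 bp in NeuN+ nuclei (2.72 and 3.39) and Rpl3l, the muscle-type paralogue of Rpl3, at +968 bp in Olig2+ nuclei (1.66 and 2.50).

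**Figure D1:**
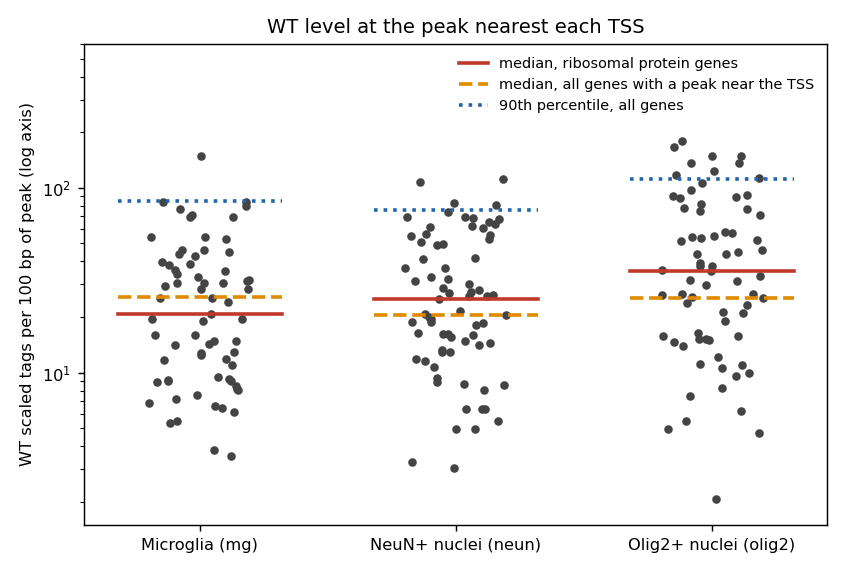
WT scaled tags per 100 bp (log axis) at the peak nearest the TSS of each ribosomal protein gene, 1 point per gene (mean of 2 libraries), in the 3 sorts. The member median (solid) lies below the median of all genes (dashed) in microglia, 20.7 against 25.8, and above it in Olig2+ nuclei, 35.4 against 25.4; dotted lines are the 90th percentile of all genes.

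Levels at the same peak were compared over 72 member peaks, at 60 genes, that overlapped reciprocally by 50% in all 3 tables. Olig2+ nuclei had the highest WT mean at 44 of the 72, against 34.5% of all shared peaks near a TSS, and microglia the lowest at 40, against 31.9%. In WT microglia 40 member peaks (55.6%) were lower and 6 (8.33%) higher than in Olig2+ nuclei by limma with Benjamini-Hochberg adjustment, where 24.5% of all 16740 shared peaks were lower and 42.7% higher. The median member difference was -0.64 on the log2 scale, against 0.15 for all shared peaks near a TSS. Between WT NeuN+ and Olig2+ nuclei, 31 were lower in NeuN+ (43.1%) and 2 higher, with 30.4% and 19% of all shared peaks, and a median of -0.40 against -0.16. Between WT microglia and NeuN+ nuclei, 26 were lower in microglia (36.1%) and 18 higher (25%), with 19.3% and 46.5% of all shared peaks, and a median of -0.19 against 0.26. Without WT microglia replicate 2 that last split was 20 lower and 22 higher.

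How the libraries are scaled moves all 3 comparisons, while the gap between members and other promoters moved little. Scaling to the sum in peaks gave 62 of 72 lower and 3 higher for microglia against Olig2+, 53 and 1 for microglia against NeuN+, and 23 and 6 for NeuN+ against Olig2+. Of all shared peaks, 67.6%, 66.6% and 49.9% were then called in either direction, against 67.2%, 65.8% and 49.5% with the deposited scaling. The member median minus that of all shared peaks near a TSS stayed between -0.84 and -0.70 for microglia against Olig2+, between -0.48 and -0.41 for microglia against NeuN+, and between -0.29 and -0.20 for NeuN+ against Olig2+ under the 3 other scalings, both other pseudocounts, edgeR and DESeq2.

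Single promoters differed by several fold between sorts. At Rps19, 577 bp upstream of the start, WT microglia had 49.3 ± 13.4 tags (SD, n = 2), NeuN+ nuclei 149 ± 16.3 and Olig2+ nuclei 285 ± 4.78, a log2 difference between microglia and Olig2+ nuclei of -2.53 ± 0.17 (SE, limma adjusted p = 7.6e-12). Rpl10, an X-linked large-subunit protein at the peptidyl transferase centre, had 34.6 ± 0.11, 71.0 ± 4.25 and 199 ± 3.46 tags, so the groups did not overlap. Rps7 at -56 bp had 15.0 ± 4.45, 40.2 ± 1.51 and 93.4 ± 7.44. Microglia were furthest below NeuN+ nuclei at Rps23 (42.0 ± 7.85 against 185 ± 2.79) and Rps16 (32.1 ± 4.99 against 130 ± 6.68). Other peaks ran the other way, both at and away from the start. Within 200 bp of the start, 3 of the 6 members higher in microglia than in Olig2+ nuclei and 13 of the 18 higher than in NeuN+ nuclei were found. Rps15 at -64 bp had 188 ± 6.88 tags in WT microglia and 93.5 ± 7.13 in Olig2+ nuclei (1.00 ± 0.14), and Rps3 at -27 bp had 123 ± 8.39 against 59.7 ± 4.55 in NeuN+ nuclei (1.03 ± 0.17). Both calls were lost with scaling to the sum in peaks. The largest such differences lay away from the start. Rpl35 at +478 bp had 46.6 ± 9.63 tags in microglia, 7.64 ± 1.18 in NeuN+ and 9.02 ± 1.91 in Olig2+ nuclei, and Rpl10a at -776 bp had 37.7 ± 5.37, 17.0 ± 0.83 and 5.40 ± 1.77. Rpl38 at +311 bp was higher in microglia too, at 96.8 ± 20.7 against 41.6 ± 2.09 and 42.0 ± 2.97. Against NeuN+ nuclei the Rpl38 call was lost with scaling to the sum in peaks, and the Rpl10a call under all 3 other scalings and DESeq2. Between nuclei, Rpl3 (58.3 ± 4.92 in NeuN+ and 184 ± 4.34 in Olig2+) and Rps9 (29.4 ± 5.54 and 87.3 ± 0.52) differed most.

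In microglia of SgshKO mice, some ribosomal protein promoters rose, and how many were called depended on the scaling and tool. Of the 108 member peaks, 10 (9.26%) were called higher and 1 (0.926%) lower than WT by limma, where 5.05% of all peaks were called higher and 2.33% lower. Among all 23806 peaks near a TSS, 8.59% were called higher and 1.20% lower, so the members' share was close to that of promoters at large. The median member change was 0.07 on the log2 scale, against 0.03 for all peaks near a TSS.

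Rps16, a small-subunit protein near the decoding centre, rose most. Its peak at -109 bp (chr7:28350452-28350709) had 28.5 and 35.6 tags in WT and 93.5 and 137 in SgshKO libraries, a log2 change of 1.80 ± 0.34 (adjusted p = 0.00064). Rps23, the small-subunit protein whose hydroxylated proline affects decoding, had 47.5 and 36.4 against 120 and 175 tags at -315 bp (chr13:90922701-90922914; 1.78 ± 0.33). At the Rpl31 start peak (chr1:39367692-39367897) the values were 180 and 138 against 499 and 421 (1.53 ± 0.27, adjusted p = 0.0002). Rpl31 sits beside the exit of the nascent chain tunnel. At all 3 peaks both SgshKO libraries lay above both WT libraries, which the rule that named them required.

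The other increases were smaller. Rps19 rose at both of its peaks, from 58.8 and 39.8 to 132 and 131 tags at -577 bp (1.43) and from 162 and 98.3 to 246 and 256 at -172 bp (0.99). Rpl27a, Rps15, Rps10 and Rps21 rose by 1.14, 1.07, 1.05 and 0.99 on the log2 scale. Rps15 moved from 193 and 183 to 420 and 374 tags, and Rps21 from 176 and 169 to 357 and 334. By subunit, chosen after the values were seen and with no test, 8 of the 38 Rps peaks and 2 of the 70 Rpl peaks were called higher (21.1% and 2.86%), beside 8.59% of all peaks near a TSS. The sole decrease was a weak intronic peak of Rpl7 at +259 bp, with 10 and 11 reads in WT and 0 and 2 in SgshKO libraries.

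**Figure D2:**
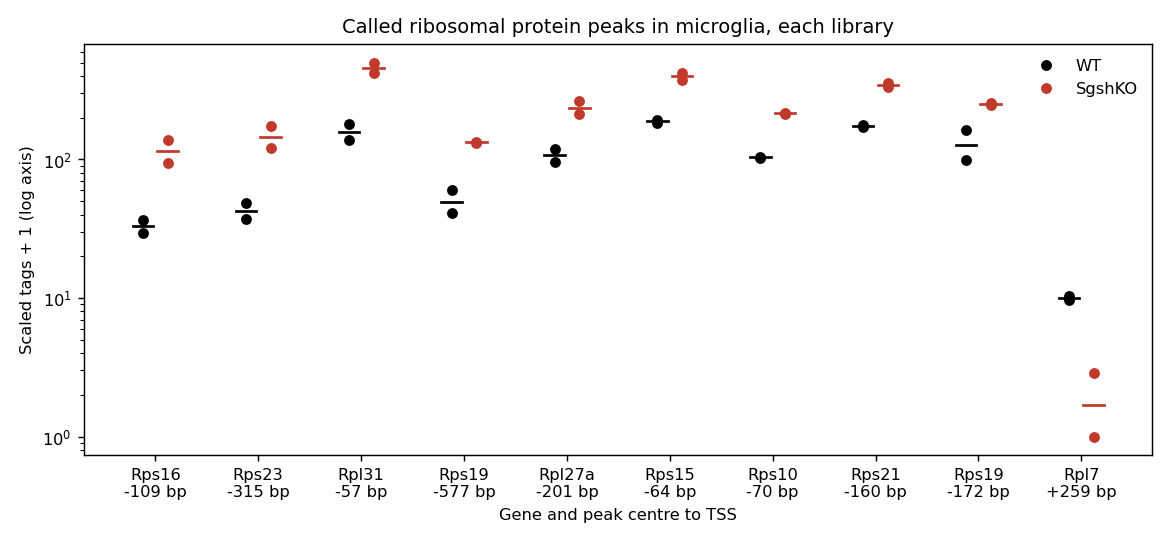
Scaled tags + 1 (log axis) in each WT (black) and SgshKO (red) microglia library at 10 of the 11 called member peaks, with bars at the mean on the log scale. The genotypes do not overlap at any of the 10 peaks shown, which the naming rule required of Rps16, Rps23, Rpl31 and Rpl7. Rps16 moved from 28.5 and 35.6 to 93.5 and 137 tags.

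All 11 calls also held when libraries were scaled to the sum in peaks or by the median of ratios and with edgeR, and 10 of 11 with quantile normalization (all but Rps19 at -172 bp) and with DESeq2 (all but Rpl7). Scaling to the sum in peaks gave 10 higher and 8 lower in all, where the deposited scaling gave 10 and 1. Of all peaks, 15.8% and 7.37% were called in the same order. The median of ratios called 20 members, edgeR 23 and a fit with the replicate block 24, while the share of all peaks called went from 7.37% to 13%, 15.4% and 15.8%. The number of calls moved with the library left out. With 1 library left in a group, the spread within that fit came from the other group only. Without WT replicate 1 only 2 peaks (Rps23 and Rpl31) were called, and without WT replicate 2 only Rps16, where 1.26% and 0.607% of all peaks were called. Without SgshKO replicate 1 or 2 more members and more of all peaks were called. The median member change was then 0.05 and 0.14, against -0.07 and 0.16 for all peaks near a TSS. The SgshKO microglia libraries also differed most from each other, with a chi-square per degree of freedom of 6.44 over peaks with at least 100 reads in the pair, against 1.16 to 1.82 for the 5 other groups. Among cell type markers, WT microglia had 79.5 and 73.7 summed blood myeloid tags and SgshKO microglia 186 and 89.1, with no peak at 4 of 6 genes, Ccr2 and Ly6c2 included, and microglial marker sums overlapped (2720 and 2400 against 3080 and 2380). The part of the spread between SgshKO libraries, of the marker values and of the share of tags in peaks in the result was not tested.

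The direction of change in microglia followed the position of the peak. Of the 61 member peaks within 200 bp of the start, 48 had a change above 0 and 7 (11.5%) were called higher, with a median of 0.46. Of all 11876 peaks at that distance, 7874 were above 0 and 13.7% were called higher, with a median of 0.25. Downstream, more than 200 bp into the gene, 26 of 27 were below 0 and the median was -0.57, though only the Rpl7 peak was called. All such peaks had 5159 of 7708 below 0 and a median of -0.22, with 1.6% called lower. The 20 peaks farther upstream had a median of 0.00 with 3 called higher (15%), beside 6.75% of all such peaks. This division was made after the values were seen, except that the 200 bp window had been planned. At Rpl10a the peak at +433 bp had 50.1 and 49.1 tags in WT and 26.0 and 22.3 in SgshKO microglia, whereas at -254 bp it had 348 and 323 against 435 and 399, neither called.

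**Figure D3:**
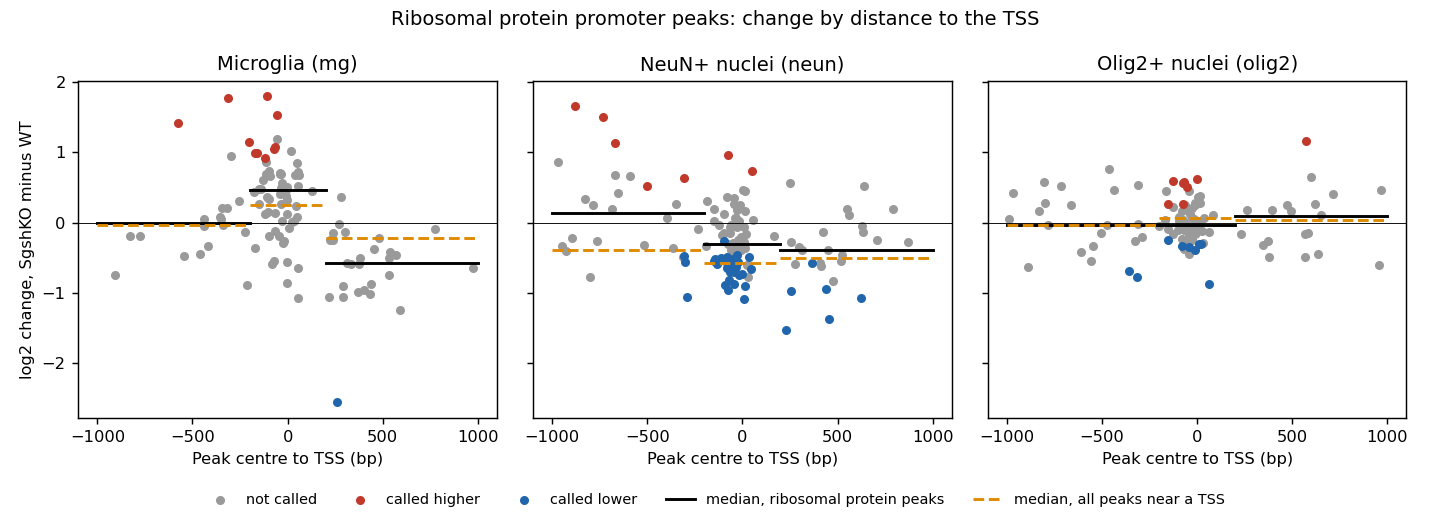
Log2 change (SgshKO minus WT) of each member peak against the distance of its centre from the TSS in bp, in the 3 sorts, with medians of members (solid) and of all peaks near a TSS (dashed) upstream, within 200 bp and downstream. In microglia the member medians are 0.00, 0.46 and -0.57 from upstream to downstream, in NeuN+ nuclei 0.13, -0.30 and -0.39.

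In SgshKO NeuN+ nuclei, decreases outnumbered increases at ribosomal protein promoters. Of 123 member peaks 35 (28.5%) were called lower and 7 (5.69%) higher by limma, where 19.6% of all peaks were lower and 10.2% higher. Among the 23397 peaks near a TSS 44.9% were called lower and 1.74% higher. The median member change was -0.28, against -0.53 for peaks near a TSS, and the members' median stayed 0.19 to 0.28 above that of promoters under every scaling, pseudocount and tool tried.

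The absolute direction was not stable. With scaling to the sum in peaks 20 members were higher and 17 lower, and with quantile normalization 16 and 8. The median of ratios gave 13 and 23, and edgeR 16 and 24. DESeq2 called 1 higher and 3 lower. The share of all peaks called was 26.5%, 15.5%, 26%, 27.4% and 4.55% in the same order, against 29.8% with the deposited scaling. Without WT replicate 1 or 2 fewer members and fewer of all peaks were called. The median member change was then -0.25 and -0.32, against -0.5 and -0.57 for all peaks near a TSS. Without either SgshKO library limma called none of the 107627 peaks, members included, although 44 and 43 members had an unadjusted p under 0.05. Summed marker tags were lower in both SgshKO libraries for every cell type with a listed peak. The 10 neuronal markers summed to 1100 and 1020 tags for WT and to 618 and 620 for SgshKO libraries, the oligodendrocyte-lineage markers to 200.0 and 175 against 97.0 and 105, and the astrocyte markers to 199 and 184 against 131 and 133. Microglial markers had 54.4 and 48.0 against 34.2 and 32.4, and endothelial ones 10.2 and 10.7 against 6.28 and 7.62. The part of these values and of the lower share of tags in peaks in the result was not tested.

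**Figure D4:**
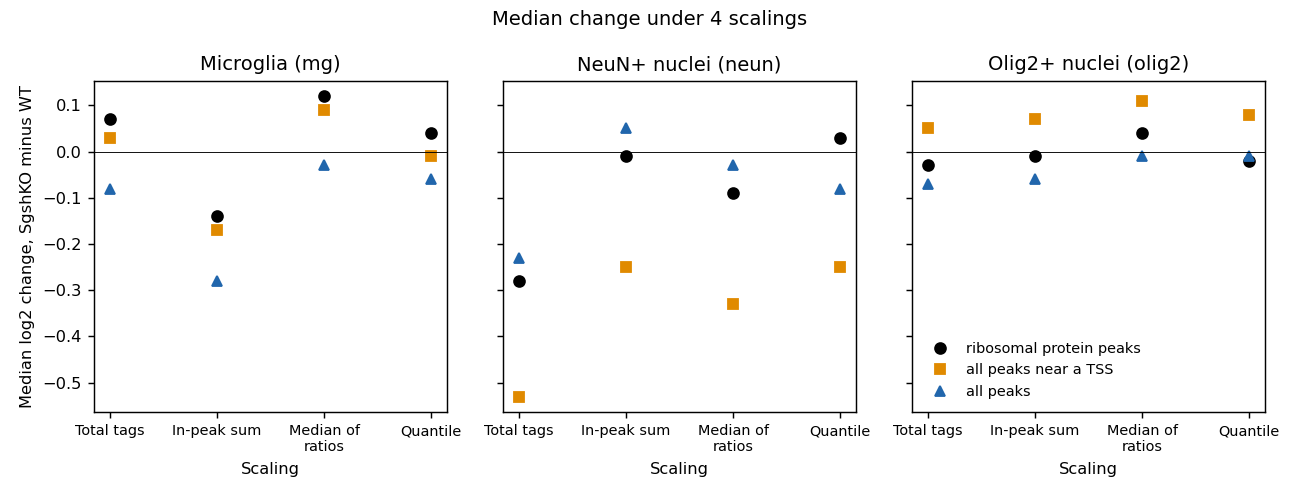
Median log2 change (SgshKO minus WT) of member peaks (circles), all peaks near a TSS (squares) and all peaks (triangles) in each sort under 4 scalings. In NeuN+ nuclei the member median moves from -0.28 to 0.03 with the scaling but stays above that of all peaks near a TSS, which runs from -0.53 to -0.25.

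Decreases at Rpl12 and Rpl35a in NeuN+ nuclei were also called under each of the 3 other scalings, and were lost with DESeq2. Rpl12, part of the stalk base that binds translation factors, had 17.0 and 17.5 tags in WT and 5.58 and 5.08 in SgshKO libraries at +229 bp (-1.53 ± 0.30, adjusted p = 0.0013). Rpl35a, another gene mutated in Diamond-Blackfan anaemia, had 25.5 and 26.0 against 11.2 and 12.1 at its start (-1.08 ± 0.25). Among strong peaks, Rpl31 went from 252 and 269 to 130 and 136 tags (-0.97 ± 0.09), Rpl37 from 240 and 230 to 130 and 123 (-0.89 ± 0.10), and Rps23 at -291 bp from 187 and 183 to 89.3 and 87.6 (-1.06 ± 0.11). Both SgshKO libraries lay below both WT libraries at each of them. The naming rule required this of Rpl12 and Rpl35a, and the strong peaks were added after their values were seen. Rps27l, the p53-induced paralogue of Rps27, fell from 70.2 and 72.9 to 37.7 and 39.4 (-0.88 ± 0.16).

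Increases in NeuN+ nuclei lay mostly upstream. Rps7 at -879 bp rose from 4.53 and 1.69 to 10.5 and 12.1 tags (1.67 ± 0.39), Rps6 at -735 bp from 3.40 and 2.82 to 8.38 and 13.3 (1.5 ± 0.37), and Rps14 at -670 bp from 3.40 and 1.69 to 5.58 and 7.62 (1.13 ± 0.41). The Rps14 call held in 5 of 12 alternatives and was lost with a pseudocount of 0.5, quantile normalization, DESeq2 and each library left out. The Rps7 and Rps6 calls each held in 8 of 12 alternatives. Both were lost with DESeq2 and with WT replicate 2 or either SgshKO library left out. All 3 peaks are weak, with 3 to 21 reads a library. The other called increases were Rpl23a, Rpl24, Rpl32 and Rpl10, of which 2 were start-site peaks. Rpl23a at -74 bp had 28.3 and 22.6 against 49.6 and 51.4 tags (0.97 ± 0.19), and Rpl24 at +50 bp 14.2 and 13.6 against 20.2 and 27.9 (0.74 ± 0.25). The 26 upstream members had a median of 0.13, against -0.39 for all upstream peaks, and the 71 within 200 bp of the start -0.30 against -0.58.

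In Olig2+ nuclei the balance was even. Of 111 member peaks 8 (7.21%) were called higher and 9 (8.11%) lower by limma, where 8.17% of all peaks were higher and 11.7% lower, and among peaks near a TSS 12.7% and 7.56%. The median change was -0.03, against 0.05 for peaks near a TSS. The median of ratios gave 14 higher and 4 lower, edgeR 18 and 5, and DESeq2 4 and 1. Of all peaks, 20.2%, 21.6% and 4.35% were called in the same order, against 19.8% with the deposited scaling. The member median minus that of peaks near a TSS stayed between -0.11 and -0.07 under every scaling, pseudocount and tool tried. Without WT replicate 1 or 2 fewer members and fewer of all peaks were called, and that difference in medians was -0.06 and -0.09.

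Rps12, a small-subunit protein, rose from 179 and 193 to 279 and 285 tags at -129 bp (0.60 ± 0.09, adjusted p = 1.2e-05). Rpl10a at its start rose from 72.6 and 61.4 to 94.1 and 114 (0.62 ± 0.14), and a weak intronic peak of Rps10 at +570 bp from 6.22 and 8.18 to 14.8 and 19.9 (1.16 ± 0.31). Rpl35, Rpl23a, Rps16 and Rpl27a also rose, by 0.57, 0.51, 0.27 and 0.27. Rpl7 at -318 bp fell from 115 and 124 to 70.1 and 68.5 (-0.78 ± 0.13), and Rplp2 at -359 bp from 85.1 and 78.8 to 49.8 and 50.5 (-0.70 ± 0.15). Rpl4 at +64 bp fell from 19.2 and 13.3 to 8.61 and 7.98 (-0.87 ± 0.31), a call lost with quantile normalization, the median of ratios, edgeR and DESeq2. Decreases at Rpl21, Rps24, Rpl3, Rpl27 and Rps19 ran from -0.39 to -0.25. Calls for Rps12, Rpl7 and Rpl35 held under every alternative run. Summed oligodendrocyte-lineage marker tags were 3600 and 3560 in WT and 2960 in each SgshKO library. Microglial markers (240 and 233 against 271 and 284), neuronal ones (42.5 and 51.6 against 60.3 and 59.2) and endothelial ones (3.63 and 2.56 against 8.61 and 10.6) were higher in both SgshKO libraries, and astrocyte ones lower (9.34 and 8.18 against 6.15 and 5.98). The part of these values in the result was not tested.

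The genotype changes were then compared between sorts at the 72 shared peaks, with the difference itself tested in 1 limma model of all 12 libraries. That model takes 1 spread per peak for all 6 groups. The SgshKO microglia libraries varied more than the others (chi-square per degree of freedom 6.44 against 1.16 to 1.82). Differences that involve microglia can therefore look firmer than the microglia libraries alone allow. The 3 comparisons share libraries and are not independent. The change was more positive in microglia than in NeuN+ nuclei at 35 members (48.6%) and more negative at 1, Rps27a, against 40.8% and 1.67% of all shared peaks and 55.1% of those near a TSS. Against Olig2+ nuclei it was more positive in microglia at 19 (26.4%) and more negative at 1, Rpl35, where 17.6% and 3.99% of all shared peaks and 24% of those near a TSS were. NeuN+ nuclei were more negative than Olig2+ at 15 (20.8%) and more positive at none by limma (21 had an unadjusted p under 0.05 in either direction), against 30.8% and 0.914% of all shared peaks and 41.4% of those near a TSS. Other scalings moved these counts, and the shares over all shared peaks. The microglia and NeuN+ split became 16 to 6 with scaling to the sum in peaks, 13 to 7 with the median of ratios and 9 to 8 with quantile normalization. The share of all shared peaks called went from 42.5% to 27.4%, 27.7% and 21.2% in the same order. Between NeuN+ and Olig2+ nuclei that share went from 31.7% to 10.4% with the median of ratios and 10.2% with quantile normalization. With edgeR it was 10.7% and with DESeq2 3.27%. The NeuN+ and Olig2+ split turned to 4 to 1 with the median of ratios, 12 to 0 with quantile normalization, 10 to 2 with edgeR and 2 to 0 with DESeq2, now more positive in NeuN+ nuclei. Without WT NeuN+ replicate 1 it was 7 more negative, and without SgshKO microglia replicate 2 the microglia and Olig2+ split was 27 to 4.

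Rpl31 and Rps23 had the smallest p in both microglial comparisons, and their calls held under all 21 alternatives of each. Alternatives that left out a library of the sort not compared could change only the spread. At Rpl31 the change was 2.50 ± 0.20 larger in microglia than in NeuN+ nuclei (adjusted p = 1.6e-09) and 1.63 ± 0.20 larger than in Olig2+ nuclei (3.2e-06). At Rps23, at -315 bp, the differences were 2.83 ± 0.26 and 1.98 ± 0.26. At both peaks these standard errors draw on all 12 libraries and are smaller than those of the microglial changes alone. The Rpl31 means were 159 in WT and 460 in SgshKO microglia, 261 and 133 for NeuN+, and 212 and 198 for Olig2+ nuclei. At Rps23 they were 42.0 and 147, 185 and 88.5, and 191 and 168. At both peaks WT microglia were the lowest WT group, and SgshKO means were above WT in microglia and below WT in both nuclei sorts. The other shared Rps23 peak, at 36 bp past the start, had means of 15.4 in WT and 15.6 in SgshKO microglia. Its differences in genotype change were 0.39 ± 0.40 against NeuN+ and 0.09 ± 0.40 against Olig2+ nuclei, neither called. The Rpl35 change was different by -1.12 ± 0.21 between NeuN+ and Olig2+ nuclei and that of Rpl37 by -0.97 ± 0.19. Quantile normalization and DESeq2 removed both calls, and the median of ratios and edgeR removed that of Rpl37.

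Of the 10 shared members called higher in microglia, 8 were called lower in NeuN+ nuclei (Rpl27a, Rpl31, Rps10, Rps15, Rps16, Rps19 at -172 bp, Rps21 and Rps23), which is 8 of the 29 members called lower there. For all shared peaks near a TSS, 1280 of 1597 called higher in microglia were called lower in NeuN+ nuclei. Rpl27a and Rps16 were also higher and Rps19 lower in Olig2+ nuclei. Over the 72 peaks the change in microglia had a Pearson correlation of -0.16 with that in NeuN+ nuclei and 0.05 with that in Olig2+ nuclei, given as a description.

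**Figure D5:**
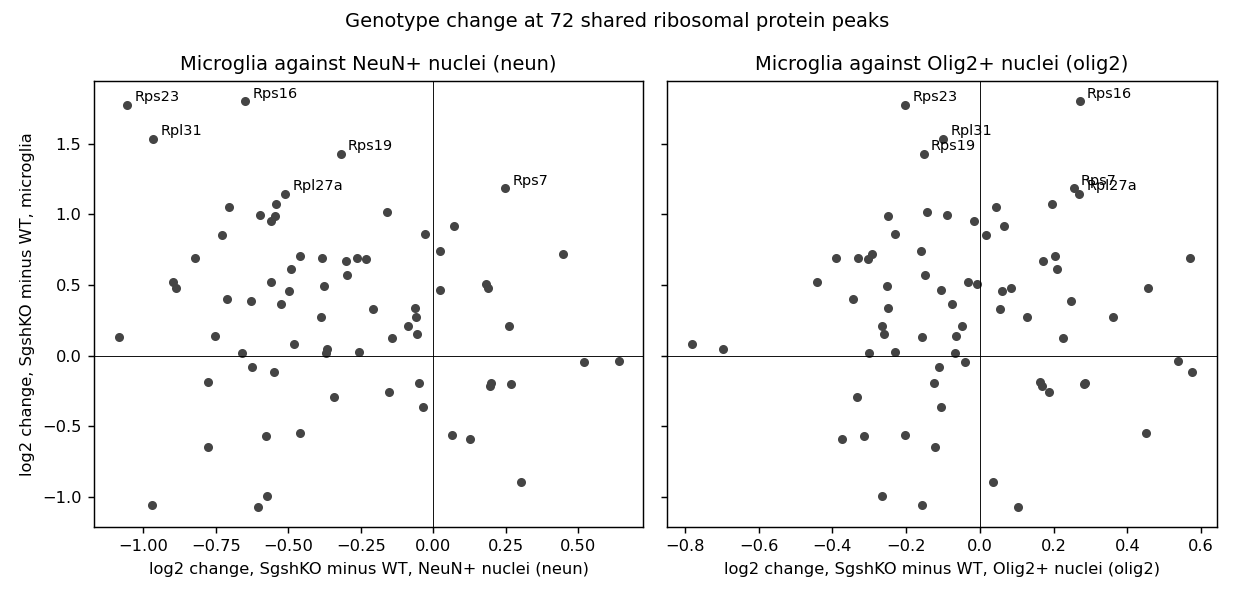
Log2 change (SgshKO minus WT) in microglia (vertical) against that in NeuN+ (left) and Olig2+ nuclei (right) at the 72 shared member peaks, with the 6 largest microglial changes named. Rps23, Rpl31 and Rps16 lie at 1.53 to 1.80 in microglia and below 0 in NeuN+ nuclei.

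Members were also read by role, at the peak nearest the start of each gene. Of the stalk proteins, which recruit elongation factors, Rplp0 fell in NeuN+ nuclei from 171 and 175 to 117 and 126 tags (-0.51 ± 0.10, adjusted p = 0.0016), a call that scaling to the sum in peaks ended and quantile normalization turned to 0.06. In microglia it had 64.0 and 59.3 against 76.2 and 69.6, and in Olig2+ nuclei 250.0 and 258 against 272 and 244, neither called. The Rplp1 and Rplp2 start peaks were called in no sort, with changes of 0.67 and 0.57 for microglia, -0.30 each for NeuN+ nuclei and 0.17 and -0.15 in Olig2+ nuclei. Rpl5 and Rpl11, which with 5S ribosomal RNA form the particle that restrains MDM2, were called in no sort. Their start-site changes were -0.20 and 0.33 in microglia, 0.27 and -0.06 in NeuN+ and 0.28 and -0.25 in Olig2+ nuclei.

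Rps6, the small-subunit protein that S6 kinase phosphorylates, and Rps27a, made as a fusion with ubiquitin, were called in no sort at the nearest peak, nor was Rpl13a, which takes part in the GAIT translational control complex. Rps27a had 17.3 and 12.7 against 6.06 and 9.28 tags in microglia and 32.9 and 41.8 against 46.8 and 45.1 in NeuN+ nuclei, and its difference between these sorts was called (-1.20 ± 0.40). In NeuN+ nuclei its increase was called under all 3 other scalings and edgeR. Rps19 was called higher in microglia and lower in NeuN+ nuclei (-0.55 ± 0.12) and Olig2+ nuclei (-0.25 ± 0.07). In NeuN+ nuclei that decrease was lost with scaling to the sum in peaks and turned to 0.02 with quantile normalization, and in Olig2+ nuclei it was lost with the median of ratios, edgeR and DESeq2. Rpl3, which lines the peptidyl transferase centre, fell in Olig2+ nuclei from 181 and 187 to 141 and 156 (-0.30 ± 0.10), a call lost with the median of ratios, edgeR and DESeq2.

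Of the X-linked genes, Rps4x fell in NeuN+ nuclei (44.8 and 41.2 against 29.3 and 22.2 tags), a call lost under all 3 other scalings, and the start peaks of Rpl10, Rpl36a and Rpl39 were called in no sort. Of the paralogues, Rps27l at -2 bp had 68.3 and 66.1 against 51.1 and 26.0 tags in microglia (-0.86, adjusted p = 0.15) and at -42 bp 14 and 18.4 against 14.1 and 14 in Olig2+ nuclei. Rpl3l had a member peak in Olig2+ nuclei only, and Rps4l, a pseudogene in RefSeq, in NeuN+ nuclei, where it had 8.50 and 5.08 against 6.98 and 10.8.

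Among ribosomal proteins whose names the rule leaves out, Fau changed by more than any member did. Fau, whose product is a fusion of a ubiquitin-like protein with small-subunit protein eS30, had 35.4 and 37.3 tags in WT and 277 and 353 in SgshKO microglia at -56 bp (chr19:6057728-6057937), a log2 change of 3.07 ± 0.30 (limma adjusted p = 1.3e-08). In Olig2+ nuclei it had 174 and 167 against 199 and 209 (0.25 ± 0.09, adjusted p = 0.055). In NeuN+ nuclei no peak near a TSS carried the Fau name, and whether its start peak carried a neighbour's name was not checked. Rpsa, also a laminin receptor, rose in microglia from 79.5 and 80.5 to 178 and 173 (1.12 ± 0.29) and in Olig2+ nuclei from 172 and 149 to 244 and 243 (0.60 ± 0.10). Rps3a1 rose in Olig2+ nuclei from 86.6 and 52.7 to 126 and 126 (0.89 ± 0.16). Rack1, a scaffold on the small subunit, was called in no sort. In microglia these genes had 6 peaks near a TSS, at 4 of them. Of the 6 changes 2 were above 0, both called, and 4 below, with a median of -0.4.

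Other genes of the translation machinery were counted in the same way. Beside them, all peaks near a TSS were called higher in 8.59% and lower in 1.20% of cases in microglia, lower in 44.9% and higher in 1.74% in NeuN+ nuclei, and higher in 12.7% and lower in 7.56% in Olig2+ nuclei. Of 60 peaks near the TSS of 35 ribosome biogenesis genes, 8 (13.3%) were called higher and none lower in microglia (18 at an unadjusted p under 0.05), with Heatr1, needed for pre-rRNA transcription, at 2.06. In NeuN+ nuclei 22 of 53 (41.5%) were lower and in Olig2+ nuclei 6 of 49 (12.2%) higher and 5 (10.2%) lower. Of translation factor peaks, 14 of 65 (21.5%) rose and 1 fell in microglia, 36 of 70 (51.4%) fell and 1 rose in NeuN+ nuclei, and 11 of 71 (15.5%) rose and 6 (8.45%) fell in Olig2+ nuclei. Eif5a at +39 bp rose by 1.87 and Eef1g by 1.80 in microglia. Of the mitochondrial ribosomal protein peaks, 7 of 89 (7.87%) rose and 2 fell in microglia, 30 of 90 (33.3%) fell and 1 rose in NeuN+ nuclei, and 5 of 95 (5.26%) rose and 8 (8.42%) fell in Olig2+ nuclei. Their medians were 0.16, -0.42 and 0.03, against 0.07, -0.28 and -0.03 for the cytosolic members. Of peaks at 16 regulator genes (14 of them with a peak in Olig2+ nuclei), which encode transcription factors such as Yy1, Gabpa and Myc and mTOR pathway proteins such as Mtor and Larp1, 5 of 39 (12.8%) rose in microglia, 15 of 32 (46.9%) fell in NeuN+ nuclei, and 2 of 30 (6.67%) rose and 3 (10%) fell in Olig2+ nuclei.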

How the data were processed

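Accessibility was compared in 12 libraries (6 groups of 2). The submitters' processing notes name Bowtie2, HOMER and the mm10 build, without versions, and the handling of reads that map to several places is not given in the sources used here. Ribosomal protein genes have many processed pseudogenes, so reads shared with such copies could be lost or misplaced inside exons. The authors deposited 1 peak table per sort. Per the file headers, the deposited signal is tags per peak scaled to 10000000 tags a library, and dividing the scaling out returned whole reads for 100% of values (within 0.01). The deposited Peak Score, a score that reaches 1000, served only as a filter in an alternative. Distances to the TSS are as deposited. The tag columns without a matching sample numbered 0.

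Log2(tags + 1) was tested with limma 3.58.1 in R 4.3.3 (eBayes with a trend, two-sided), SgshKO against WT in each whole table, and across sorts over 16740 peaks with 50% reciprocal overlap. Fits across sorts used all 12 libraries with 1 spread per peak for all 6 groups. Called means a Benjamini-Hochberg adjusted p under 0.05 over all peaks tested. This scale understates changes at low peaks. After ± stands an SD (n = 2), or, for a log2 change, its standard error. All peaks entered. The alternatives tried were a pseudocount of 0.5 or 5, a filter dropping the lowest 25% of peaks, 3 scalings, edgeR 4.0.16 and DESeq2 1.42.0 with the recovered counts, a replicate block, leaving out each library, a 200 bp window, an adjusted p under 0.01, the top Peak Score and 1 peak per gene. Same-numbered replicates did not deviate together (correlations of 0.0553, 0.00379 and 0.00256), so numbers were not taken as pairs. Fits were tested on simulated data.

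Genes were named by rule: per table the 3 largest increases and decreases among called members whose groups did not overlap, 3 per direction between WT sorts, the 2 smallest p per pair of sorts for genotype changes, and a list by role. Other called members in microglia and Olig2+ nuclei, Rpl37, Rpl31, Rps23, Rpl23a and Rpl24 in NeuN+ nuclei, Rps3 and Rps15 between WT sorts, and genes singled out by level or position were added after their values were seen. Some genes that the rule names are not reported here. The members and lists were chosen with earlier results of these data known. Coordinates are mm10 as deposited, and sequences are from RefSeq (GRCm38.p6).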

Additional observations from a re-analysis of the deposited data

Results flagged for a closer look

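The genotype change differed between sorts, by the test of the difference itself, at 36 of 72 shared member peaks for microglia against NeuN+ nuclei, 20 for microglia against Olig2+ nuclei and 15 for NeuN+ against Olig2+ nuclei. Of all shared peaks, 42.5%, 21.6% and 31.7% differed in the same order, and of the 10498 near a TSS 5869, 2930 and 4405. Of the 15 calls between NeuN+ and Olig2+ nuclei, 0 were kept with quantile normalization or DESeq2. The clearest single differences were Rpl31 (2.50 on the log2 scale) and Rps23 at -315 bp (2.83) for microglia minus NeuN+ nuclei. For microglia minus Olig2+ nuclei they were the same peaks of Rpl31 (1.63) and Rps23 (1.98). For NeuN+ minus Olig2+ nuclei they were Rpl35 (-1.12) and Rpl37 (-0.97). With 2 libraries a group, no library could be set against 3 or more of its own group. The 2 SgshKO microglia libraries, on which the microglial changes rest, differed from each other by a chi-square per degree of freedom of 6.44, against 1.16 to 1.82 in the other groups. The test of the difference took 1 spread per peak over all groups, so microglial differences can look firmer than these libraries alone allow.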

How the results depend on the processing

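Counts of called members moved with scaling and tool. In microglia (11) they were 18 with scaling to the sum in peaks, 20 with the median of ratios, 23 with edgeR, 24 with the replicate block, and 7 each within 200 bp and at an adjusted p under 0.01. In NeuN+ nuclei (42) they were 37 with scaling to the sum in peaks, 24 with quantile normalization, 4 with DESeq2 and 27 at the stricter p. In Olig2+ nuclei (17) they were 18 with the median of ratios, 23 with edgeR, 5 with DESeq2 and 9 at the stricter p. The share of all peaks called in microglia (7.37%) was 15.8% with scaling to the sum in peaks and 13% with the median of ratios. It was 15.4% with edgeR and 15.8% with the replicate block. In NeuN+ nuclei it was 26.5% with scaling to the sum in peaks and 15.5% with quantile normalization. In Olig2+ nuclei it was 20.2% with the median of ratios and 21.6% with edgeR. Differences in genotype change between microglia and NeuN+ nuclei (36) numbered 22 with scaling to the sum in peaks, 20 with the median of ratios, 17 with quantile normalization, 23 with edgeR and 14 with DESeq2. Between NeuN+ and Olig2+ nuclei (15) they numbered 6, 5, 12, 12 and 2 in the same order. For microglia and NeuN+ nuclei the share of all shared peaks (42.5%) fell to 27.4%, 27.7%, 21.2%, 27.4% and 17.8%. For NeuN+ and Olig2+ nuclei it fell from 31.7% to 14.4%, 10.4%, 10.2%, 10.7% and 3.27%. With DESeq2 the share of all peaks called also fell, from 29.8% to 4.55% in NeuN+ and from 19.8% to 4.35% in Olig2+ nuclei. The cause was not tested.

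The median change in microglia (0.07) was 0.27 without the lowest 25% of peaks, -0.135 with scaling to the sum in peaks and 0.456 within 200 bp. In NeuN+ nuclei (-0.28) it was -0.007 with scaling to the sum in peaks, -0.087 with the median of ratios and edgeR, 0.027 with quantile normalization and -0.078 with DESeq2. Quantile normalization turned the NeuN+ changes of Rplp0 to 0.055, Rps19 to 0.018 and Rpl13a to 0.480.

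Leaving out 1 library gave 1 to 20 calls in microglia, 0 to 22 in NeuN+ nuclei and 6 to 15 in Olig2+ nuclei. WT differences ranged from 31 to 45 (microglia and NeuN+), 37 to 47 (microglia and Olig2+) and 26 to 37, and differences in genotype change from 29 to 40, 16 to 31 and 7 to 19. With 1 library left in a group, that library is assumed to vary like the others. The replicate block gave 48 calls in NeuN+ and 17 in Olig2+ nuclei, and its other counts stayed within 1.5 times. Of 1030 alternatives to 64 named called results, 885 kept the call, 142 lost it and 3 changed sign. Between sorts, some alternatives left out a library of no group compared. Those could change the spread but not the difference, so the kept calls overstate what was tried. The WT difference between microglia and NeuN+ nuclei at Rps15 turned to -0.26 with scaling to the sum in peaks. The increases at Rps7, Rps6 and Rps14 in NeuN+ nuclei rest on 3 to 21 reads a library.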
